A study of Mus musculus with 8 samples.

Results

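The genes described here are those that build cholesterol and long-chain fatty acids, together with their regulators, the oxysterol enzymes Ch25h and Cyp7b1, and the sterol export genes. A list of 38 genes was matched by symbol to the array's probe sets, keeping only probe sets annotated with exactly 1 gene. This found 36 of the 38 genes among the 18193 genes so named, on 82 of the 45037 probe sets tested. Acat2 and Nr1h2 had no such probe set. A gene is represented by its brightest probe set unless another is named, and every value is a log2 expression value, so a difference of 1 is a 2-fold change.

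RNA was measured on 8 arrays from C57BL/6 mouse embryonic fibroblasts. All cells were null for Stat5 and had received a mutant STAT5 by retroviral infection, so every group carries both the deletion and a mutant, and no cells with unmutated STAT5 are analysed here. EA cells carry a mutant described as EE to AA in a binding domain, and YF cells carry Y694F, a mutant of the phosphorylated tyrosine. Each was left unstimulated (groups EA and YF) or given growth hormone for 120 minutes (groups EA_GH and YF_GH), with 2 arrays per group that the series calls biological duplicates. The labels do not say how many infected lines stand behind a mutant, so the mutant and the line that carries it cannot be told apart, and p-values measure the spread between these arrays.

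Cells make cholesterol from acetyl-CoA in a long pathway. Early enzymes build mevalonate and isoprenoid units and join them into squalene, and later enzymes turn squalene into lanosterol and trim that into cholesterol. Most of these genes are driven by SREBP-2, the product of Srebf2, which SCAP carries out of the endoplasmic reticulum when sterols are low and INSIG proteins hold back when sterols are high; the related SREBP-1, from Srebf1, drives fatty acid genes. Ch25h makes an oxysterol that strengthens the INSIG hold and activates LXR, the receptor that turns on the sterol exporters Abca1 and Abcg1.

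At their promoters SREBP proteins are known to act together with NF-Y, which binds CCAAT, and Sp1, which binds GGGCGG. The 250 bases before the annotated start are shown for 4 late sterol enzymes that were lower in EA than in YF cells in every mutant comparison below, for the early enzyme Hmgcs1, and for Ch25h, the member that responded to the hormone. Sequences and positions are RefSeq's on GRCm38.p6, written 5′ to 3′ on the gene's strand; capitals mark CCAAT, the Sp1 motif GGGCGG and the sterol response element-like TCACNCCAC on either strand, so CCAAT on the opposite strand reads ATTGG. They are Hsd17b7 at chr1:169969206-169969455 on the minus strand, Sc5d at chr9:42264301-42264550 on the minus strand, Nsdhl at chrX:72918271-72918520 on the plus strand, Msmo1 at chr8:64733579-64733828 on the minus strand, Hmgcs1 at chr13:119690101-119690350 on the plus strand and Ch25h at chr19:34475149-34475398 on the minus strand.
Hsd17b7: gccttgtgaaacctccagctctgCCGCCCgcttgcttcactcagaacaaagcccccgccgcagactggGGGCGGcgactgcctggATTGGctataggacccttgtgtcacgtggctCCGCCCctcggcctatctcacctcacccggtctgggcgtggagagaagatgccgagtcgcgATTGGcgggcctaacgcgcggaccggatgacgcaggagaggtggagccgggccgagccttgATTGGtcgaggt
Sc5d: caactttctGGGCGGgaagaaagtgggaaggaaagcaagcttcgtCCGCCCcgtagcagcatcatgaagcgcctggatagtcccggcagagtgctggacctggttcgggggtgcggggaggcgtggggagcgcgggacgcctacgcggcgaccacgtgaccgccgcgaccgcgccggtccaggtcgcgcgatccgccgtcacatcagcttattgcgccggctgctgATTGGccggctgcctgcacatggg
Nsdhl: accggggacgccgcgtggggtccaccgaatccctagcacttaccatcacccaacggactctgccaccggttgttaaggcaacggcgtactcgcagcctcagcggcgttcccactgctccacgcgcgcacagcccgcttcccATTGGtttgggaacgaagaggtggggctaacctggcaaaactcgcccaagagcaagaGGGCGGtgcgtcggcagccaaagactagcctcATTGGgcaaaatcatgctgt
Msmo1: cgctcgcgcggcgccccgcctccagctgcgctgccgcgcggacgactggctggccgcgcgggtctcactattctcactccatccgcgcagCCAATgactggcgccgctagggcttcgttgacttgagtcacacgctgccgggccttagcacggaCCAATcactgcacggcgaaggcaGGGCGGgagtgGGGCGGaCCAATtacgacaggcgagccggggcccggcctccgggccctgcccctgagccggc
Hmgcs1: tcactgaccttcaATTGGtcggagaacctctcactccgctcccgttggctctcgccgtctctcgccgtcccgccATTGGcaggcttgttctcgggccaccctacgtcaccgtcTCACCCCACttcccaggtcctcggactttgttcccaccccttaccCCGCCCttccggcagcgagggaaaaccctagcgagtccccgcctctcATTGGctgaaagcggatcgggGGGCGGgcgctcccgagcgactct
Ch25h: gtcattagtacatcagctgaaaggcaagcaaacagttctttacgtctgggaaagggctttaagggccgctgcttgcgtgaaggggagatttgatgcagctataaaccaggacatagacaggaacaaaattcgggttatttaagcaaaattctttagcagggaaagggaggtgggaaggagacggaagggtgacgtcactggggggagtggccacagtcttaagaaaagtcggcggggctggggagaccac

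The table of promoters held 29 of the 38 members, with windows of 300 bases that run from 250 before to 50 after the start. CCAAT was present in all 9 late sterol enzymes with a window and in 14 of the 15 sterol enzymes of the whole pathway, against 41.1% of 27025 genes. GGGCGG was likewise present in 9 of 9 late enzymes and in 14 of 15 along the pathway, against 38.2% of genes. Base composition was not matched in these shares. TCACNCCAC was found in 1 of 29 members, Hmgcs1, against 1.44% of genes, and the STAT5-like TTCNNNGAA in 1 of 29, Ebp, against 9.55%. The kappa B motif was found in 6 of 29 (Mvk, Pmvk, Ebp, Srebf1, Insig2 and Fads2), against 9.55%, and the LXR DR4 motif in none of 29, against 0.0962%. Fasn held CCAAT, Abca1 and Fads2 held GGGCGG, and the Ch25h window held none of the 6 motifs. Fdps, Fdft1, Sqle, Stard4, Cyp7b1, Abcg1, Scd1, Scd2 and Fads1 were not matched. These matches describe letters in a window and show no binding.

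The Stat5a probe set, which may or may not read the returned STAT5 sequence, differed between the mutants. Stat5a read 4.83 and 5.36 in EA, 4.28 and 4.86 in EA_GH, 7.95 and 7.82 in YF, and 8.51 and 7.87 in YF_GH, a change of -3.20 in EA against YF cells averaged over treatments (SE 0.22, limma adjusted p = 0.00094); whether its probes lie in the returned sequence is not given in the sources used here. Stat5b was at 2.01 or below on all 8 arrays. Values below 4 form a dense low group in which the size of a change is uncertain, and 55.0% of probe sets had a mean there; among the members, Abcg1 and Nr1h3 did. The array YF_GH replicate 1 stood apart from its duplicate on the second principal component (-55.8 against -3.28, with the YF arrays at 25.8 and 32.6), so counts are also given without it. Of 14 fibroblast markers 13 reached 4 in some group, Lum being the exception, and their summed log2 level was 164 to 166 on the EA and EA_GH arrays and 174 to 176 on the YF and YF_GH arrays. Thy1 changed by -4.96 and Dcn by -4.45 in EA against YF cells (limma adjusted p = 1.8e-05 and 0.00026), with Dcn inside the low group there. Of the 14 markers 6 were lower and 1 was higher, and the median change was 0.0006, with 7 above 0 and 7 below, and the other changes lay between -0.92 (Lum) and 0.46 (Col6a1), so the summed difference came mostly from Thy1 and Dcn. The macrophage markers Ptprc, Adgre1, Aif1, Lyz2, Itgam, Fcgr1 and Cx3cr1 stayed below 4 in every group, while Cd68, a lysosomal protein, was 3.15 higher in EA cells (limma adjusted p = 0.00026). The other listed markers at or above 4 did not pass, Cd14 at 0.79 (limma adjusted p = 0.084) and Csf1r at -0.38 (limma adjusted p = 0.31). The summed level of the 10 macrophage markers was 40.9 to 42.3 on EA and EA_GH arrays and 36.3 to 38.7 on YF and YF_GH arrays, with Cd68 the largest change among them. The part of these differences, and of the Stat5a level, in the results on sterol genes was not tested, and in bulk RNA fewer cells of a kind and less RNA per cell cannot be told apart.

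The first question was how the pathway differed between cells of the 2 mutants. Genes of cholesterol synthesis were lower in EA than in YF cells, with 7 of the 10 enzymes after squalene, 1 of the 7 before it and 2 of the 8 fatty acid genes passing in that direction, while the exporter Abca1 was higher. Averaged over both treatments, with 4 arrays a side, 12 of 36 members were lower and 2 higher in EA cells. The 2 higher were Abca1 and Ch25h. Ch25h, at 0.23 with overlapping arrays, changed by -0.68 without hormone and 1.14 with it. The mutants differed widely, since 16.5% of all probe sets passed the averaged comparison, with 8.38% lower and 8.17% higher. Among genes with a mean of at least 4 it was 16.6% lower and 19.7% higher. The 10 late enzymes had a median change of -0.48, against 0.05 over all genes at or above 4. The members and roles were chosen with earlier results of these data known, so these medians are a description and no test. Without YF_GH replicate 1 the counts were 11 lower and 4 higher, with 6 of the 10 late enzymes lower.

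**Figure D1:**
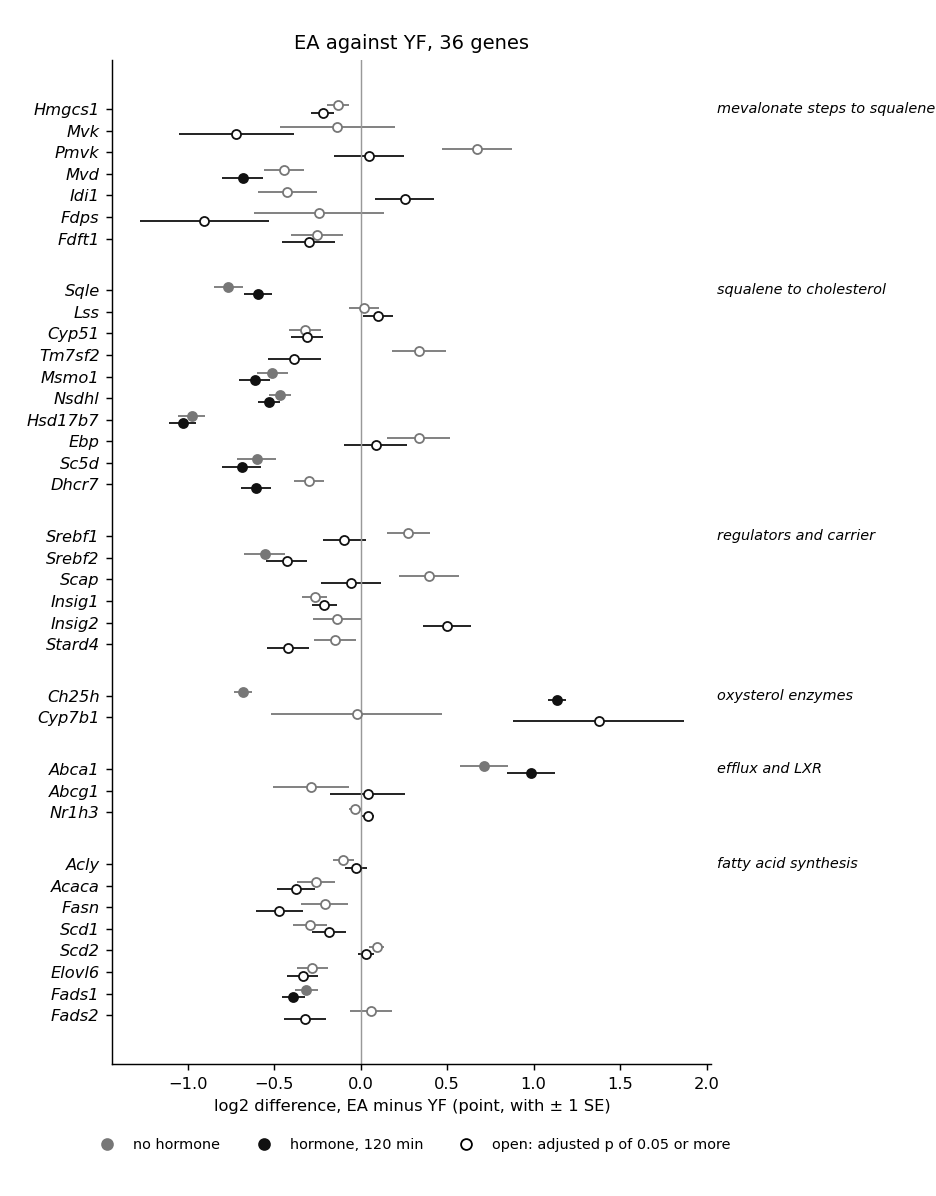
Difference EA minus YF in log2 units for each of the 36 genes, grouped by role, without hormone (grey) and with hormone (black). Bars extend by the SE on each side of a point and are narrower than 95% intervals. Filled points passed at an adjusted p under 0.05 in limma. Most sterol synthesis points lie left of 0, with Hsd17b7 farthest at -0.98 and -1.03, while Abca1 lies to the right at 0.71 and 0.99 and Ch25h changes side.

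Taken separately, the untreated cells had 8 members lower and 1 higher, where 10.8% of all probe sets passed (5.25% lower and 5.51% higher, or 10.5% and 13.1% of the genes at or above 4). The hormone-treated cells had 8 lower and 2 higher, where 10.2% passed (5.8% lower and 4.37% higher, or 11.1% and 10.6% of those genes). The 6 members lower in both were Sqle, Msmo1, Nsdhl, Hsd17b7, Sc5d and Fads1. How many of all genes were lower in both was not counted, so nothing is read from that number. The comparisons compare different arrays but take their spread from the same fit of all 8, so they are not separate evidence. The counts depended on single arrays. In untreated cells, fewer members passed without EA replicate 1, without either EA_GH array or without either YF array. In treated cells, fewer passed without EA_GH replicate 2 or YF_GH replicate 1. Each of these fits leaves 1 array in a group, and fewer of all probe sets passed in it as well. Whether the loss was particular to the members was not tested.

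Among the steps to squalene, Mvd, which makes isopentenyl diphosphate, was the one of 7 measured genes that passed. It read 9.44 and 9.68 in EA, 9.57 and 9.55 in EA_GH, 9.95 and 10.04 in YF, and 10.37 and 10.12 in YF_GH. All 4 EA values lay below all 4 YF values, and the averaged change was -0.56 (SE 0.08, limma adjusted p = 0.0096). Among genes at or above 4, 17.5% were lower on every EA array like this, and 21% were higher on every EA array. A second, dimmer Mvd probe set gave -0.58 and did not pass (limma adjusted p = 0.32). Hmgcs1, which makes HMG-CoA, read 13.77 to 13.96 on EA and EA_GH arrays and 13.93 to 14.10 on YF and YF_GH arrays, and its change of -0.18 did not pass (limma adjusted p = 0.064, 95% interval -0.29 to -0.06). Idi1, the isomerase of the isoprenoid unit, read 13.26 and 13.21 in YF and 12.42 and 12.92 in YF_GH, against 12.77 to 13.04 in the EA groups, and gave -0.08. Fdft1, squalene synthase, gave -0.28 (limma adjusted p = 0.19, interval -0.55 to -0.01). For both genes a second probe set passed, at -0.28 for Idi1 and -0.26 for Fdft1.

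The remaining 3 early genes had wide intervals. Fdps, which makes farnesyl diphosphate, gave -0.57 with an interval of -1.24 to 0.10, Mvk, mevalonate kinase, gave -0.43 with -1.02 to 0.17, and Pmvk, the kinase that follows it, gave 0.36 with -0.0009 to 0.72. YF_GH replicate 1 held the highest YF value in all of them, at 11.43 for Fdps, 8.56 for Mvk and 9.92 for Pmvk, where its duplicate read 10.55, 7.80 and 9.35. Neither a fall nor an unchanged level was shown for these genes at this number of arrays.

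After squalene 7 of 10 genes passed; whether this group differs from the early one was not tested. Sqle, squalene epoxidase, opens this segment and read 11.45 and 11.67 in EA, 11.68 and 11.59 in EA_GH, 12.32 and 12.33 in YF, and 12.18 and 12.27 in YF_GH. The EA and YF values did not overlap, and the averaged change was -0.68 (SE 0.06, limma adjusted p = 0.0017), a 1.60-fold difference. Cyp51, lanosterol demethylase, read 12.70 and 12.93 in EA, 12.91 and 12.79 in EA_GH, 13.18 and 13.10 in YF, and 13.12 and 13.20 in YF_GH. Every EA array lay below every YF array. Its change was -0.32 (limma adjusted p = 0.029), and its other probe sets changed by -0.54 and -0.68 and also passed; the brightest one passed in 7 of 15 alternatives.

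Msmo1 and Nsdhl remove the methyl groups left on the sterol ring. Msmo1 read 11.80 and 12.06 in EA, 11.79 and 11.73 in EA_GH, 12.46 and 12.42 in YF, and 12.36 and 12.39 in YF_GH, a change of -0.56 (SE 0.06, limma adjusted p = 0.0041). Nsdhl read 10.69 and 10.68 in EA, 10.63 and 10.78 in EA_GH, 11.12 and 11.18 in YF, and 11.19 and 11.28 in YF_GH, a change of -0.50 (SE 0.05, limma adjusted p = 0.0020). For both genes every EA array lay below every YF array. Their promoters, printed above, each held CCAAT and GGGCGG.

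Hsd17b7, which reduces the ketone left by that demethylation, had the largest averaged difference among the brightest probe sets of the members. It read 11.31 and 11.26 in EA, 11.40 and 11.26 in EA_GH, 12.17 and 12.35 in YF, and 12.38 and 12.34 in YF_GH. The highest EA array lay below the lowest YF array, and the averaged change was -1.003 (SE 0.055, limma adjusted p = 0.00044). Its brightest probe set carries the suffix that Affymetrix gives to probes able to match other transcripts. A second one, at 6.10 to 6.36 in the EA groups and 6.75 to 7.92 in the YF groups, gave -0.92 and did not pass (limma adjusted p = 0.065), and the other 2 lay inside the low group, so the mean over its probe sets changed by -0.50.

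Sc5d and Dhcr7 act at the last steps, one adding and the other removing a ring double bond. Sc5d read 10.38 and 10.53 in EA, 10.43 and 10.46 in EA_GH, 11.17 and 10.93 in YF, and 11.24 and 11.04 in YF_GH, a change of -0.65 (SE 0.08, limma adjusted p = 0.0055), and a second probe set gave -1.43 (limma adjusted p = 0.0014). Dhcr7 read 11.15 and 11.41 in EA, 11.04 and 11.04 in EA_GH, 11.58 and 11.57 in YF, and 11.65 and 11.64 in YF_GH, a change of -0.45 (SE 0.06, limma adjusted p = 0.0073). Both genes were lower on every EA array. Dhcr7 passed with hormone (-0.61, limma adjusted p = 0.014) and not without (-0.30, limma adjusted p = 0.11), and the difference between these, -0.31, was not past the threshold (limma adjusted p = 0.45).

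**Figure D2:**
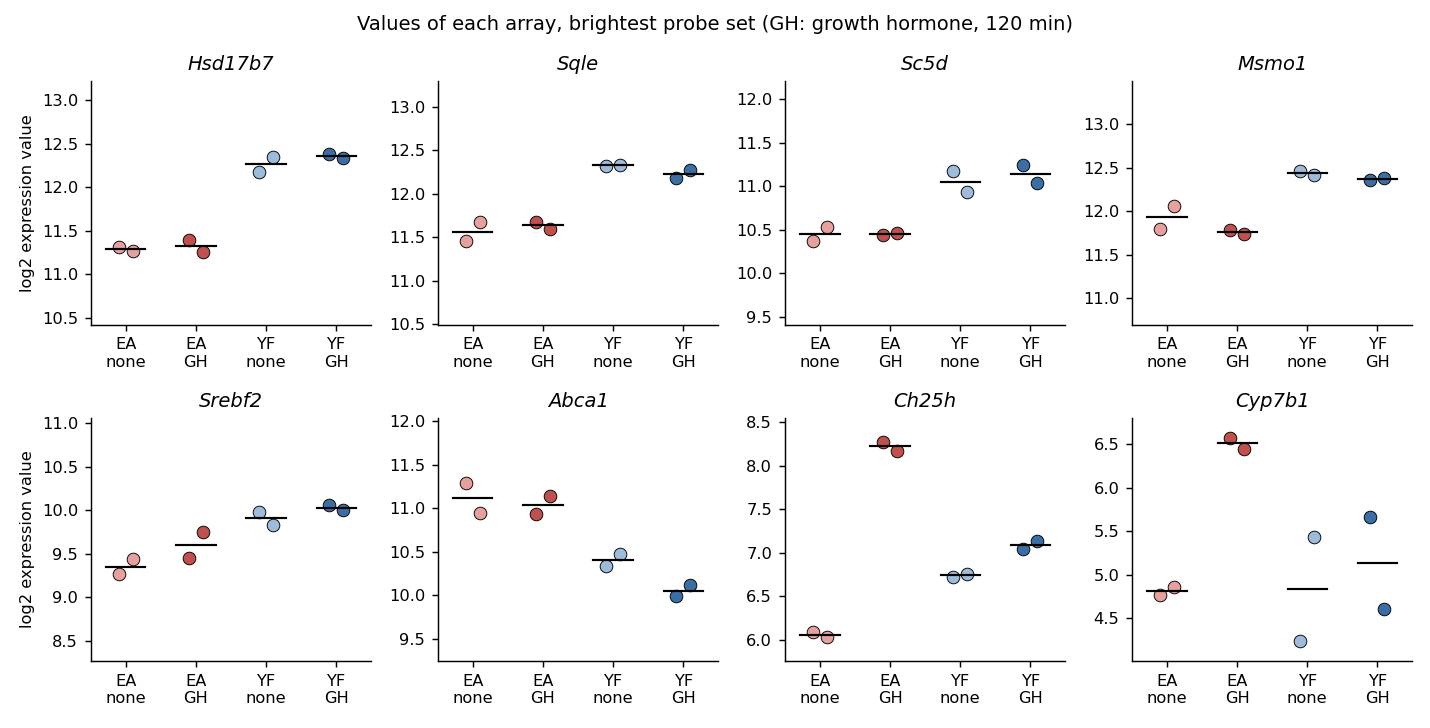
Log2 value on each of the 8 arrays for 8 genes, by group (EA, EA_GH, YF, YF_GH); points are arrays, short bars are group means, and every panel spans the same 2.8 log2 units. In Hsd17b7, Sqle, Sc5d, Msmo1 and Srebf2 the EA and EA_GH points lie below the YF and YF_GH points, Abca1 shows the opposite, Ch25h stands highest in EA_GH at 8.27 and 8.17, and the YF points of Cyp7b1 are widely spread.

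The other 3 late genes did not pass. Lss, which closes the sterol ring, gave 0.06 (95% interval -0.09 to 0.21) on its brightest probe set and -0.21 on the mean of its 3 probe sets, Tm7sf2, a sterol reductase, gave -0.02 (-0.30 to 0.25), and Ebp, a sterol isomerase, gave 0.21 (-0.12 to 0.54). The probe sets of Lss disagreed: another one gave -0.81 and passed (limma adjusted p = 0.026). These 3 genes held CCAAT and GGGCGG in their windows as the 6 lower late enzymes with a window did.

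Of the regulators, Srebf2 and Insig1 were lower in EA cells and the rest did not pass. Srebf2 read 9.27 and 9.43 in EA, 9.45 and 9.74 in EA_GH, 9.98 and 9.83 in YF, and 10.06 and 9.995 in YF_GH. The groups did not overlap, and the averaged change was -0.49 (SE 0.08, limma adjusted p = 0.016), but its other probe set gave -0.04 (limma adjusted p = 0.64), and without EA replicate 1 or YF replicate 1 the brightest one lost the call. Insig1, itself a target of SREBP, read 13.67 and 13.67 in EA, 13.55 and 13.60 in EA_GH, 13.87 and 14.00 in YF, and 13.71 and 13.87 in YF_GH. The lowest YF_GH array lay barely above the EA arrays, and the change of -0.24 passed (SE 0.05, limma adjusted p = 0.034) but missed the threshold in 6 of the 15 alternatives run.

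Scap gave 0.17 (interval -0.14 to 0.48) and Srebf1 gave 0.09 (-0.13 to 0.31). Scap read 10.60 and 10.57 in YF and 11.27 and 10.72 in YF_GH, against 10.93 to 11.02 in the EA groups. Insig2, the less sterol-dependent relative of Insig1, gave 0.18 (-0.07 to 0.43). Stard4, a sterol carrier protein, was not past the threshold at -0.28 (limma adjusted p = 0.099), although another probe set gave -0.54 and passed (limma adjusted p = 0.0097).

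**Figure D3:**
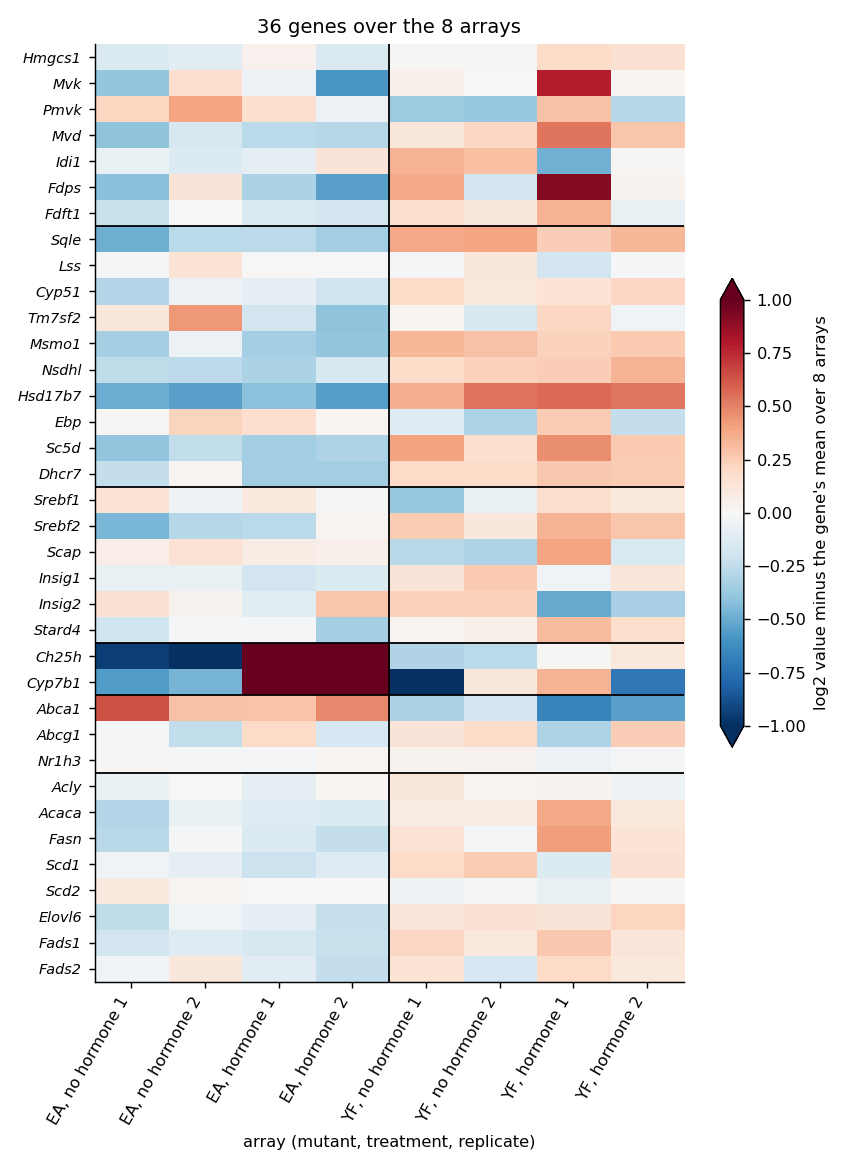
Log2 value of each of the 36 genes on each of the 8 arrays minus that gene's mean over the arrays, grouped by role, with colour clipped at -1 and 1. The rows from Sqle to Dhcr7 are mostly below their mean on the 4 EA and EA_GH columns and above it on the 4 YF and YF_GH columns, with Lss, Tm7sf2 and Ebp as exceptions, and Ch25h is highest on the EA_GH columns.

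The sterol exporter Abca1 moved the other way. It read 11.29 and 10.95 in EA, 10.94 and 11.14 in EA_GH, 10.34 and 10.47 in YF, and 9.99 and 10.11 in YF_GH. Every EA array lay above every YF array, and the averaged change was 0.85 (SE 0.10, limma adjusted p = 0.0042). Its other 2 probe sets were inside the low group on all arrays, so the mean over its probe sets changed by 0.31. Abcg1, another exporter, lay at 3.31 to 3.86 and Nr1h3, the gene of an LXR receptor, at 1.87 to 1.96, both inside the low group, where no change could be sized.

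Of the 8 fatty acid genes 2 were lower, where 16.6% of genes at or above 4 were, and their median change was -0.27. Fads1, a desaturase of polyunsaturated fatty acids, read 11.84 and 11.90 in EA, 11.87 and 11.81 in EA_GH, 12.23 and 12.14 in YF, and 12.30 and 12.15 in YF_GH. The groups did not overlap, and the change was -0.35 (SE 0.05, limma adjusted p = 0.0070); a dimmer probe set with a side in the low group gave -1.37. Elovl6, which elongates saturated fatty acids, read 11.82 and 12.03 in EA, 11.98 and 11.83 in EA_GH, 12.19 and 12.22 in YF, and 12.20 and 12.28 in YF_GH. The groups did not overlap, and the change of -0.31 (SE 0.06, limma adjusted p = 0.029) passed in 6 of 15 alternatives; a second probe set gave -0.52 and passed.

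The 2 enzymes that start fatty acid synthesis lay just beyond the threshold. Acaca, acetyl-CoA carboxylase, gave -0.32 (SE 0.08, limma adjusted p = 0.052) and Fasn, fatty acid synthase, gave -0.34 (SE 0.10, limma adjusted p = 0.081). Acly, which supplies acetyl-CoA to both pathways, gave -0.06 with a 95% interval of -0.18 to 0.05, and 0.02 on the mean of its probe sets. Scd1 and Scd2 introduce the first double bond and differed in sign: Scd1 gave -0.24, with a second probe set at -0.72 that passed, and Scd2 gave 0.06, with a second probe set at 0.38 that passed. Fads2, the partner of Fads1, gave -0.13 on its brightest probe set and -0.87 on a second one that passed (limma adjusted p = 0.021). In all, 7 genes passed this comparison only on a probe set other than their brightest: Idi1, Fdft1, Lss, Stard4, Scd1, Scd2 and Fads2.

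**Figure D4:**
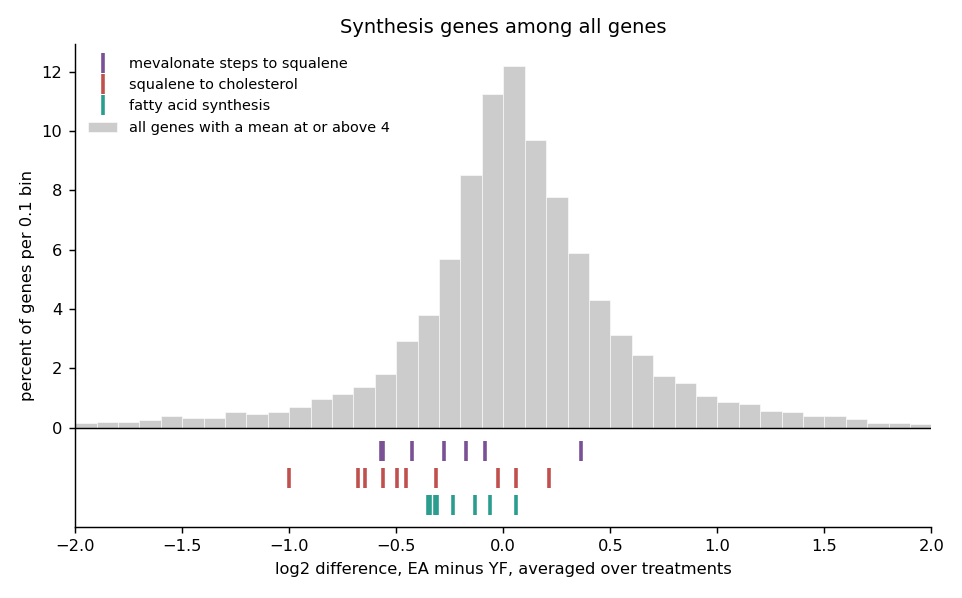
Percent of genes per bin of log2 change EA minus YF averaged over treatments, for the 10779 genes with a mean of at least 4 (475 lie outside -2 to 2 and are not drawn). Ticks mark the members of 3 roles. The late sterol enzymes have their median at -0.48, left of the median of all genes at 0.05, but inside the broad spread of the whole distribution.

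The second question was what 120 minutes of growth hormone changed. It raised Ch25h in EA cells and left no other member past the threshold in either mutant. Ch25h, cholesterol 25-hydroxylase, read 6.08 and 6.03 in EA and 8.27 and 8.17 in EA_GH, and 6.72 and 6.76 in YF and 7.04 and 7.13 in YF_GH. The treated arrays lay above the untreated ones in both mutants, by far more in EA cells. Such upward separation was seen in 14.4% of genes at or above 4 in EA cells and 31.4% in YF cells. The change was 2.16 in EA cells (SE 0.05, limma adjusted p = 0.0019), a 4.48-fold rise, where 0.135% of all probe sets passed, 0.0933% rose, and 0.204% of genes at or above 4 rose. In YF cells it was 0.35 (SE 0.05, 95% interval 0.21 to 0.48) and did not pass (limma adjusted p = 0.14), where 0.18% of probe sets passed.

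The Ch25h responses differed by 1.82 (SE 0.07, 95% interval 1.63 to 2.004, limma adjusted p = 0.025), 1 of 9 probe sets, or 0.02% of those tested, to pass that test. This call was lost when any 1 array of EA or YF, or YF_GH replicate 1, was left out, with the difference between 1.77 and 1.86 over all 8 such fits, and the adjusted p was 0.17 with the replicate number as a block. With that block no probe set of the whole table passed this test. Fitted on the EA and EA_GH arrays alone, the rise in EA cells had an adjusted p of 0.081 in limma. Between the mutants Ch25h changed by -0.68 without hormone, EA being the lower (limma adjusted p = 0.0024), and was 1.14 higher in EA cells with it (limma adjusted p = 0.00054). Averaged over both mutants the hormone raised it by 1.25 (SE 0.04, limma adjusted p = 0.0021), the 1 member called there, where 0.211% of probe sets passed.

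Cyp7b1, which hydroxylates oxysterols further, gave a similar picture that did not pass. It read 4.76 and 4.86 in EA, 6.57 and 6.44 in EA_GH, 4.23 and 5.43 in YF, and 5.66 and 4.61 in YF_GH. The EA_GH arrays lay above all others, whereas the YF and YF_GH arrays overlapped. The change in EA cells was 1.70 (SE 0.49, 95% interval 0.45 to 2.95, limma adjusted p = 0.61), and a second probe set gave 1.91 (limma adjusted p = 0.35). In YF cells it was 0.30 with an interval of -0.95 to 1.55.

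**Figure D5:**
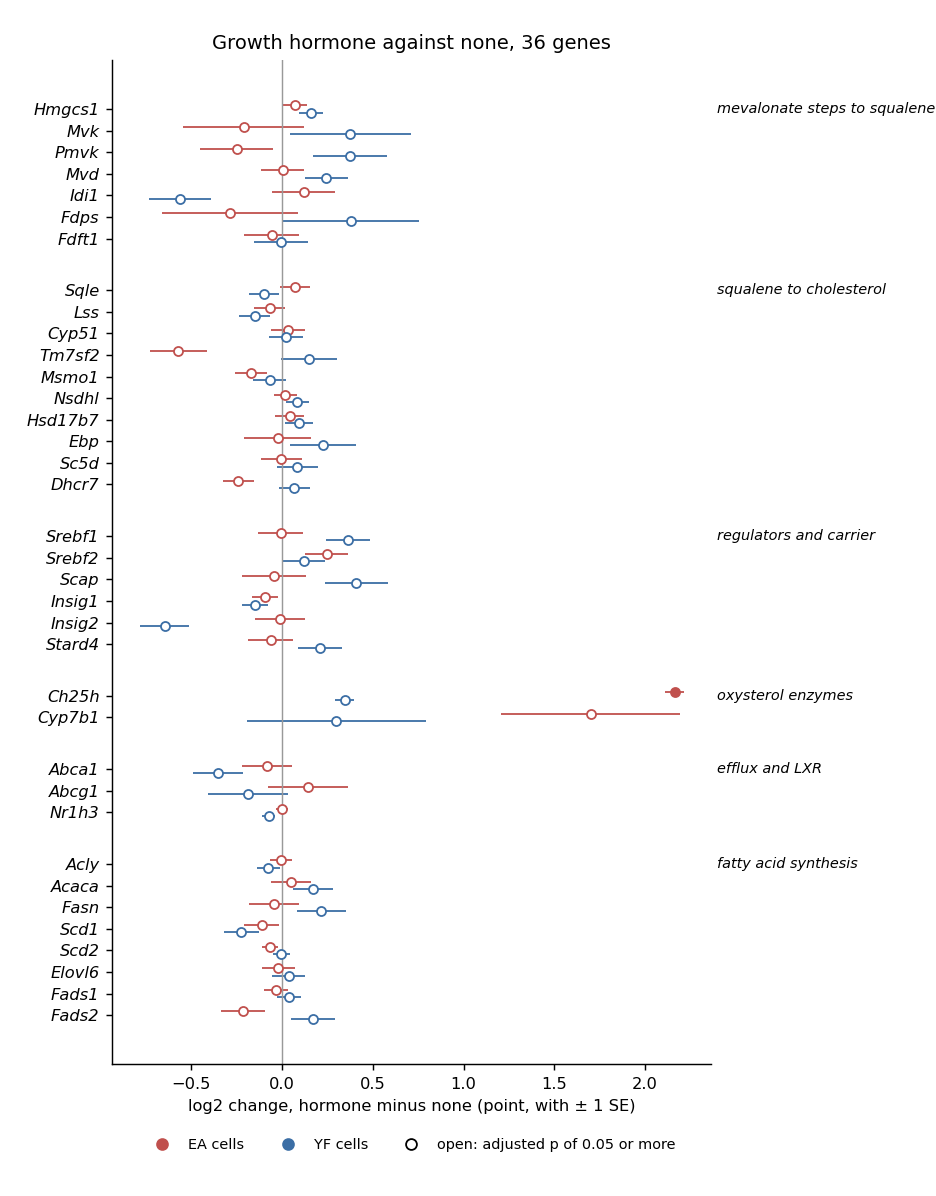
Log2 change with growth hormone for each of the 36 genes, grouped by role, in EA cells (red) and YF cells (blue). Bars extend by the SE on each side of a point and are narrower than 95% intervals. A filled point passed at an adjusted p under 0.05 in limma. Ch25h in EA cells, at 2.16, is the filled point, Cyp7b1 in EA cells stands next at 1.70 with a wide bar, and the other genes lie between -0.65 and 0.41.

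The other 34 members had hormone changes of -0.57 (Tm7sf2) to 0.25 (Srebf2) in EA cells, with 95% intervals inside -1 to 1 for 32 of them. In YF cells they ran from -0.65 (Insig2) to 0.41 (Scap), again with 32 intervals inside these bounds. Averaged over both mutants all 34 intervals lay inside them, from -0.62 to 0.72. On the brightest probe sets a change of 1 log2 unit was thus outside the interval of most members, and smaller changes could not be told from 0. Among the other probe sets none passed, but a dimmer one of Fads1 moved further in EA cells. It read 2.95 and 2.98 in EA, inside the low group, and 4.51 and 4.22 in EA_GH. In YF it read 5.42 and 5.18, and in YF_GH 4.94 and 4.58. At an unadjusted p under 0.05 YF cells had 2 higher and 3 lower members, Srebf1 and Ch25h higher and Idi1, Insig2 and Abca1 lower, where 12.3% of genes at or above 4 were higher and 9.89% lower at that p. EA cells had 2 higher, Ch25h and Cyp7b1, and 2 lower, Tm7sf2 and Dhcr7, where 4.09% were higher and 6.42% lower. Nothing is read from counts this small against those shares. Insig2 read 11.12 and 11.12 in YF and 10.38 and 10.56 in YF_GH (-0.65, limma adjusted p = 0.22), against 11.04 and 10.92 in EA and 10.78 and 11.16 in EA_GH, and its responses in the mutants differed by 0.64 without passing (limma adjusted p = 0.45).

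Other genes around the pathway were counted from lists of the same kind. Of 28 further genes of sterol transport and turnover, 21 were measured, and 4 were higher and 1 lower in EA cells averaged over treatments, where 19.7% of genes at or above 4 were higher and 16.6% lower. These 21 included 15 genes with a mean of at least 4. Over all probe sets 8.17% were higher and 8.38% lower. No excess is read from these counts. Cyp27a1, a mitochondrial sterol hydroxylase, was 1.65 higher (limma adjusted p = 0.0014), Lpcat3, a phospholipid-remodelling target of LXR, 0.89 higher (limma adjusted p = 0.0087), and Scarb1, a lipoprotein receptor, 0.82 higher (limma adjusted p = 0.0039). Stard5, a sterol-binding protein, was 0.78 higher (limma adjusted p = 0.0026) with overlapping arrays, and Cyb5b, a cytochrome b5, changed by -0.49 (limma adjusted p = 0.0086). The median of these 21 was 0.05, where it was -0.43 over the 17 measured sterol synthesis members.

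Lcat, the plasma enzyme that esterifies cholesterol, was the 1 gene of that list that passed with hormone in YF cells. It read 7.63 and 7.53 in YF and 9.22 and 9.09 in YF_GH, a rise of 1.58 (SE 0.09, limma adjusted p = 0.019). In EA cells it read 8.57 and 8.56 without hormone and 8.81 and 8.58 with it. That change of 0.13 did not pass (limma adjusted p = 0.87). The Lcat responses differed by -1.45, EA minus YF, and no gene of that list passed the limma test of this difference.

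Of 37 further fatty acid and lipid synthesis genes 35 were measured, and 3 were higher and 8 lower in EA cells, with a median of -0.04, against the same 19.7% and 16.6% of genes at or above 4. Acacb, the mitochondrial acetyl-CoA carboxylase, was 1.42 higher (limma adjusted p = 0.016), as were the elongase Elovl7 and the dehydratase Hacd2, each at 0.62. Lower were Hacd1, another dehydratase (-1.43, limma adjusted p = 0.00094), Dgat2, which makes triglyceride (-0.65, limma adjusted p = 0.0056), Acsl4 (-0.51), Fads3 (-0.45), the NADPH-supplying malic enzyme Me1 (-0.45), Mid1ip1 (-0.27), Hacd3 (-0.19) and Hsd17b12 (-0.14). None of the 35 passed with hormone in either mutant by limma, with 4 at an unadjusted p under 0.05 in EA cells and 7 in YF cells, where 10.5% and 22.2% of genes at or above 4 were.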

How the data were processed

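Total RNA from 8 samples was labelled with biotin and hybridised to Affymetrix arrays, per the labels' protocols. The authors deposited log2 expression values per probe set, and the submitters' processing notes name GCOS and RMA without versions or settings. The number of arrays limits the precision. Of 45101 probe sets, 64 controls were left out; 34945 carried 1 gene symbol, 932 several and 9160 none.

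Differences were tested with limma 3.58.1 in R 4.3.3 (lmFit, eBayes) on the deposited log2 values, with 4 group means over all 8 arrays, 7 comparisons, two-sided tests and Benjamini-Hochberg adjustment over 45037 probe sets, called at 0.05. SE is limma's moderated standard error. Every member is accounted for, and every array's value is given for members that passed. The members, gene lists and roles were chosen with earlier results of these data known. Same-numbered arrays were not shown to be paired: their deviations correlated between groups at -0.30 to 0.37, so the block is an alternative. The fit was also run on simulated data, with independent noise on each array and planted changes larger than most changes of the members. That run does not show how well smaller changes are found. Alternatives were other scalings, a low-value filter, other variance moderation, a replicate block, fewer arrays, the mean over probe sets, and each array left out.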

Additional observations from a re-analysis of the deposited data

Results flagged for a closer look

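The response of Ch25h to growth hormone differed between the mutants, being 1.82 log2 units larger in EA than in YF cells (limma adjusted p = 0.025, with 2 arrays per group). The test of that difference drew attention to it. Both EA_GH arrays lay above both EA arrays, and both YF_GH arrays above both YF arrays. Among genes at or above 4, 14.4% separated upward like this in EA cells and 31.4% in YF cells. The adjusted p ranged from 0.0087 to 0.17 over the 15 alternatives run, and 6 of them passed.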

How the results depend on the processing

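None of the 36 calls of members over the 7 comparisons changed direction under any alternative run. Averaged over treatments, Lss and Acly, which were not called, turned sign with the mean over probe sets (-0.21 and 0.02). For the hormone response in EA cells, 1 member passed in each fit except that on its own arrays alone, where 0 did. For the difference of the responses 1 member passed, against 0 with only probe sets at or above 4 and 0 with trend and robust moderation. It was also 0 with the replicate block and 0 with the crossed block. Over all probe sets tested, none passed with that filter or with the replicate block. With trend and robust moderation 42 probe sets passed, and with the crossed block 2. For EA against YF without hormone 9 members passed, against 5 with the replicate block, which lost Sc5d, Srebf2, Abca1 and Fads1. With hormone 10 passed, against 6 on its own arrays alone.

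Leaving out each array in turn gave 1 to 1 members for the hormone in EA cells, 0 to 1 in YF cells (Scap, higher, without YF_GH replicate 2) and 0 to 1 for the difference. It gave 3 to 10 for EA against YF without hormone, 3 to 11 with hormone and 10 to 15 averaged over treatments. The other alternatives gave 12 to 19 for the last. Of the members named as lower on average, Sqle, Msmo1, Nsdhl, Hsd17b7, Sc5d, Dhcr7 and Fads1 passed in all 15 alternatives, as did Abca1, higher.

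The replicate block, a fit with the replicate number as a covariate, also ended the averaged calls of Cyp51 and Elovl6 (limma adjusted p = 0.058 and 0.053) and the call of Mvd with hormone (0.054). Exchanging the EA numbers in that block, chosen after seeing the data, gave 10, 15 and 19 members for EA against YF without hormone, with hormone and averaged. Taking the mean over probe sets changed Cyp51 by -0.51 and Fads1 by -0.86. Causes were not tested. With 2 arrays per group and 4 residual degrees of freedom, small changes cannot be told from 0 for many genes, although some passed, such as Insig1 at -0.24 averaged over treatments.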

Other observations

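Genes of fat cells, which use the same synthesis enzymes heavily, were measured beside the members. Of 10 listed adipocyte markers 8 were measured and 4 reached 4 in some group. The secreted adipokines Adipoq, Lep and Retn and the lipid droplet gene Cidec stayed below 4 in every group. Fabp4, a fatty acid carrier, lay at 11.99 to 12.38 on all arrays, and Pparg, a regulator of fat cell genes, at 8.61 to 9.92. Averaged over treatments, Cebpa was 0.76 higher in EA cells (limma adjusted p = 0.040) and Lpl, lipoprotein lipase, changed by -0.60 (limma adjusted p = 0.0054). The summed log2 level of the 8 markers was 49.1 to 49.4 on the EA and EA_GH arrays and 49.5 to 50.3 on the YF and YF_GH arrays.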
